A study of Mus musculus with 23 samples.

Results

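The IL-6 family was followed through the first days of dextran sulfate sodium (DSS) colitis in mouse colon: 4 ligands (Il6, Il11, Osm and Lif), 5 receptor subunits (Il6st, Il6ra, Il11ra1, Osmr and Lifr) and the feedback inhibitor Socs3. Members were taken by gene symbol, as every probe set that the platform annotation pairs with one of these 10 symbols and no other. That gave 20 of 45101 probe sets, for 9 of the 10 genes and of the 18193 genes named on the array. No probe set carried the symbol Il11ra1 alone, so the IL-11 receptor was not analysed here.

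RNA of whole colon from C57BL/6J mice, a common inbred laboratory strain, aged 12 to 14 weeks, was measured on 23 Affymetrix Mouse Genome 430 2.0 arrays. Untreated colon was taken at day 0 (5 arrays), and colon of mice that drank 3% DSS, a sulfated sugar polymer harmful to the gut lining, was taken after 2, 4 or 6 days (6 arrays each). Each array is a different animal of a separate cohort, named here by day and mouse number, and no animal was measured over time. The labels name neither the stretch of colon sampled nor the sex of the mice, and no other allele or agent.

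Cytokines of the IL-6 family signal through gp130, the shared receptor subunit that Il6st encodes. IL-6 and IL-11 each first bind a receptor of their own (Il6ra and Il11ra1) and then engage gp130, whereas LIF joins gp130 to Lifr, and mouse oncostatin M (Osm) joins it mainly to Osmr. The assembled receptors activate JAK kinases and the transcription factor STAT3. STAT3 in turn induces Socs3, whose protein binds gp130 and JAK and shuts the signal off. The family is known for driving the acute phase response and, in the gut, for roles in epithelial repair and in stromal and immune cells. Osm and Lif lie next to each other on chromosome 11, and Osmr and Lifr on chromosome 15, with 0 protein-coding genes between the members of either pair in RefSeq.

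Promoters of 4 members are shown because they hold short sequences that inflammatory transcription factors are known to bind. These members also rose in the colon by day 6, as described further on. Each line is the 250 bases before a start annotated by RefSeq on build GRCm38.p6, read 5′ to 3′ on the gene's strand. The windows are chr5:30012864-30013113 on the plus strand for Il6, chr7:4778142-4778391 on the minus strand for Il11, chr11:4257318-4257567 on the plus strand for Lif and chr11:117969367-117969616 on the minus strand for Socs3. Il11 has another annotated start, whose window is not shown. Capitals mark matches to any of 4 motifs, searched on both strands: STAT (TTCNNNGAA), AP-1 (TGANTCA), NF-kappaB (GGG, then any 2 bases, then TTTCC) and C/EBP (TTGCNNAA).
Il6: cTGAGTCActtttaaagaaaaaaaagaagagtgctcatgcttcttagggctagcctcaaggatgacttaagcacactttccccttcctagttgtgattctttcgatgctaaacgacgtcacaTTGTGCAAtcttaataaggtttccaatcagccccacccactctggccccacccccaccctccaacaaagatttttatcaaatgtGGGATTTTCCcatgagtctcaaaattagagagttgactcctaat
Il11: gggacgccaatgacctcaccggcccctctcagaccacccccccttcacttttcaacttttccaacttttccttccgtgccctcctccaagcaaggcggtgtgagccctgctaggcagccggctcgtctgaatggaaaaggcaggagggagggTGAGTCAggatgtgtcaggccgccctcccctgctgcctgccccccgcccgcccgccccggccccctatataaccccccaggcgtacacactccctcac
Lif: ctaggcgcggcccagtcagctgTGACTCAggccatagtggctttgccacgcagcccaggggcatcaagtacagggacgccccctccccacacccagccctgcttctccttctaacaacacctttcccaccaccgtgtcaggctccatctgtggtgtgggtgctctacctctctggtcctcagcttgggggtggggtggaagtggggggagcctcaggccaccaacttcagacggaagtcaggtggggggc
Socs3: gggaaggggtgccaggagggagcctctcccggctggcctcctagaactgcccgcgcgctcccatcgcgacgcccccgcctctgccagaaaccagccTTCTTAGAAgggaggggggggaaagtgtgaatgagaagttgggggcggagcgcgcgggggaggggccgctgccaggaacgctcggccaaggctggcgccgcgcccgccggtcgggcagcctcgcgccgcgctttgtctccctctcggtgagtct
The Il6 window held an AP-1 match (TGAGTCA) from 249 to 243 bases before the start. It also held a C/EBP match, written TTGTGCAA on the gene's strand, from 128 to 121 bases before the start, and an NF-kappaB match (GGGATTTTCC) from 44 to 35 bases before it. Il11 held an AP-1 match (TGAGTCA) from 98 to 92 bases before the start, and Lif held one (TGACTCA) from 228 to 222 bases before it. Socs3 had a STAT match (TTCTTAGAA) from 154 to 146 bases before the start. No matches overlapped. Among 32851 windows of the same length in RefSeq, 7.0196% held the STAT motif, 6.7487% the AP-1 motif, 1.4124% the NF-kappaB motif and 9.5644% the C/EBP motif. A window was given for 9 of the 10 members (12 windows), all but Osm. The other 8 windows held none of these motifs, which says nothing about binding. They include those of Osmr, Il6st and Lifr, which rose by day 6 as well. A match is a description of sequence and not a measured site.

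Signals were the authors' linear intensities, already scaled so that the trimmed mean of each array was 500.0. Differences are given as log2(signal + 16) ± SE from 1 limma fit of all 4 days, and a gene passed at a Benjamini-Hochberg adjusted p of 0.05 or less over 12463 genes. Because 16 is added, fold changes of dim genes are understated. Colon markers were strong on every array: the summed signal of 12 epithelial markers lay between 144559 and 198796. Other tissues were present too. Squamous markers summed to 631 on day 2 mouse 8 and 845 on day 4 mouse 8 against 6351 or more elsewhere, and pancreas markers to 192830 on day 2 mouse 6 and 53426 on day 6 mouse 1 against at most 11530 elsewhere. These 4 arrays stand apart, and results that change without them are named. Spiked hybridization controls were lower on later days, with medians of 11.61 at day 0, 11.60 at day 2, 11.25 at day 4 and 11.12 at day 6 on the log2 scale, and the log2 ratio of 3′ to 5′ beta-actin probe sets had medians of 0.43, 0.44, 0.61 and 0.50. The part of RNA quality in the results was not tested, and the hybridization controls were used as a covariate in an alternative fit. These controls were at least 11.54 on every day 0 array, and at most 11.34 at day 4 and 11.37 at day 6. That fit therefore cannot tell the controls apart from the day, and a call lost in it cannot be assigned to either. In whole tissue, fewer cells of a type and less RNA per cell cannot be told apart.

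By day 6 the measured members of the IL-6 family other than Il6ra were higher in the colon, Lif by the least (1.7-fold). The day 6 calls of Osm, Lif and Lifr were lost in some alternatives, given with each gene. Il6 (30.3-fold) and Il11 (13.8-fold) rose most among the ligands and Osmr (4.57-fold) among the receptors, and Socs3 rose 10.3-fold. Il6ra was the 1 measured member that did not pass at any time. At day 2 no member passed, at day 4 Il6, Il6st, Osmr, Lifr and Socs3 passed, and at day 6 Il11, Osm and Lif passed as well. These counts give no order between members: Il11 differed by 1.05 at day 4 without passing, more than the 0.66 of Il6st and of Lifr. No member passed in the lower direction in any comparison.

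**Figure D1:**
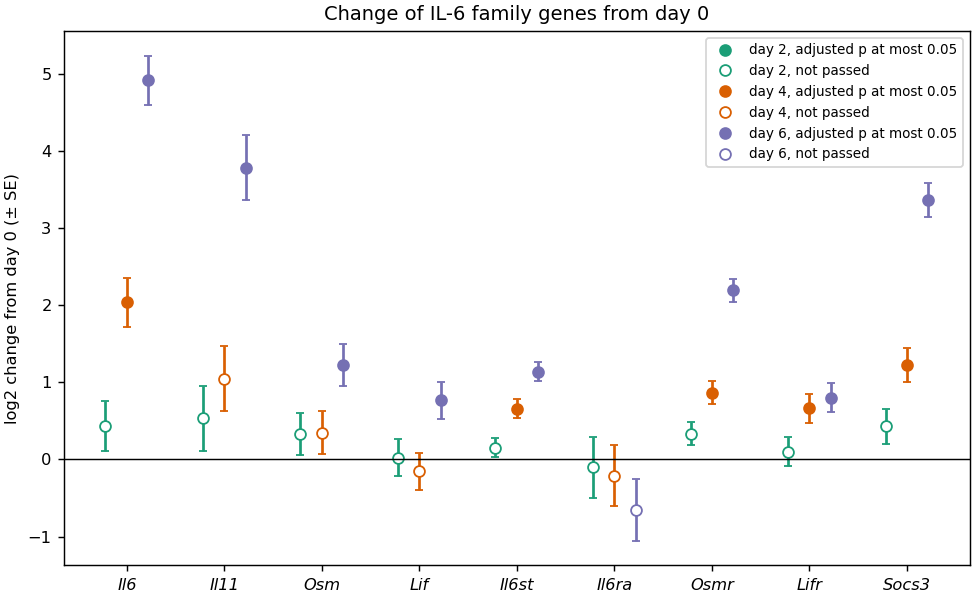
Change of each of the 9 measured members against day 0 on the log2(signal + 16) scale (vertical axis) at days 2, 4 and 6, with bars of 1 SE; filled symbols passed an adjusted p of 0.05. Il6, Il11 and Socs3 reach 4.92, 3.78 and 3.37 at day 6, while Il6ra lies at -0.66 with an open symbol.

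Of the 9 measured members, 0 passed at day 2 in limma's test, where 0.0802% of 12463 genes passed in either direction. At an unadjusted p under 0.05 the count was 1 member (Osmr) against 12.8% of all genes. At day 4, 5 of 9 were higher than at day 0, against 12.1% of all genes, and 4 of the 9 had no overlap with day 0, against 7.61%. At day 6, 8 of 9 were higher, against 18.1% of all genes, and 7 of 9 had no overlap, against 9.93%. The median member changed by 0.66 at day 4 and 1.22 at day 6, beside medians of 0.06 and 0.02 over all genes. These counts describe the members and do not stand as support, because Il11 passed the filter on low values only through its 6 day 6 arrays, Il6 only through 2 day 4 and 6 day 6 arrays, and Osm only with its 6 day 6 arrays, since no more than 4 earlier ones lay above their medians. Across all genes, 2262 were higher and 1790 lower at day 6. Centring each array on its median turned that split to 1556 higher and 2381 lower, with 8 of the 9 members still higher. With the hybridization controls as a covariate, 2 members passed at day 4 (Il6 and Socs3) and 5 at day 6 (those of day 4 with Il11, Il6st and Osmr). Calls fell over all genes too: that fit gave 268 higher and 71 lower at day 4, and 662 higher and 562 lower at day 6.

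Among the ligands, Il6, the founding cytokine of the family, was dim in untreated colon and rose at day 4 and again at day 6. Its day 0 signals were 12.9, 1.24, 13.1, 20.1 and 1.03 on mice 1 to 5. At day 2 they ran from 1.30 through a median of 19.4 to 28.7. These are dim values, none above the median of its own array, and days 0 and 2 overlapped. At day 4 Il6 ran from 35.6 through 79.7 to 142, above every array of days 0 and 2. At day 6 it ran from 507 through 683 to 1454, so that the lowest day 6 animal was above the highest of day 4. Il6 thus rose by 2.04 ± 0.32 at day 4 (4.1-fold, limma adjusted p = 0.000325) and by 4.92 ± 0.32 at day 6 (30.3-fold, adjusted p = 3.74e-10). At day 2 the difference was 0.43 ± 0.32 (adjusted p = 0.607). The size, not the call, hinges on the constant added to these dim signals: the day 6 rise was 6.67 with 1 added and 3.44 with 64 added, and the day 4 rise 3.56 and 1.04.

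Il11, a cytokine known for its action on stromal cells and epithelium, passed at day 6. Its signals at day 0 were 8.56, 11.4, 45.1, 9.36 and 57.7, and at day 2 they ran from 5.17 through 42.6 to 85.9. At day 4 they ran from 33.5 through 72.1 to 93.5. Day 4 still overlapped both earlier days, and no array of these 3 days exceeded the median of its array. At day 6 Il11 ran from 204 through 548 to 1221, apart from every earlier array. The day 4 difference of 1.05 ± 0.42 did not pass (limma adjusted p = 0.0925). At day 6 Il11 rose by 3.78 ± 0.42 (13.8-fold, adjusted p = 4.82e-07), and between days 4 and 6 by 2.74 ± 0.42 (adjusted p = 4.24e-05). With 64 added to the signal the day 6 rise was 2.70, and with 1 added it was 4.64.

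Osm, oncostatin M, a product chiefly of myeloid and T cells, passed at day 6 with a smaller change. Its day 0 signals were 49.6, 114, 46.2, 62.3 and 43.3. At day 2 they ran from 35.7 through 86.8 to 128, and at day 4 from 51.9 through 72.6 to 171. At day 6 it ran from 126 through 161 to 193. The day 6 animals did not overlap day 0, but the highest animals of days 2 and 4 reached into their range. Osm rose by 1.22 ± 0.28 at day 6 (2.34-fold, limma adjusted p = 0.00148), after 0.35 ± 0.28 at day 4 (adjusted p = 0.417). With the hybridization controls as a covariate the day 6 value was 1.29, with an adjusted p of 0.0962.

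Lif, leukaemia inhibitory factor, had the weakest rise of the ligands. It stood at 165, 82.4, 93.9, 73.9 and 100.04 on the day 0 mice, with mouse 1 apart from the other 4. Day 2 signals ran from 79.7 through 103 to 124. Day 4 signals ran from 63.7 through 85.6 to 140 and those of day 6 from 116 through 167 to 342, so that day 6 overlapped day 0. The day 6 rise was 0.77 ± 0.24 (1.7-fold, limma adjusted p = 0.0167). The call was lost in several alternatives: without day 6 mouse 21 the rise was 0.60 (adjusted p = 0.0509), with the hybridization controls as a covariate 0.30 (adjusted p = 0.712), and with only the days compared in the fit the adjusted p was 0.0506. The other Lif probe set lay below the filter and differed by -0.0024 at day 6.

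**Figure D2:**
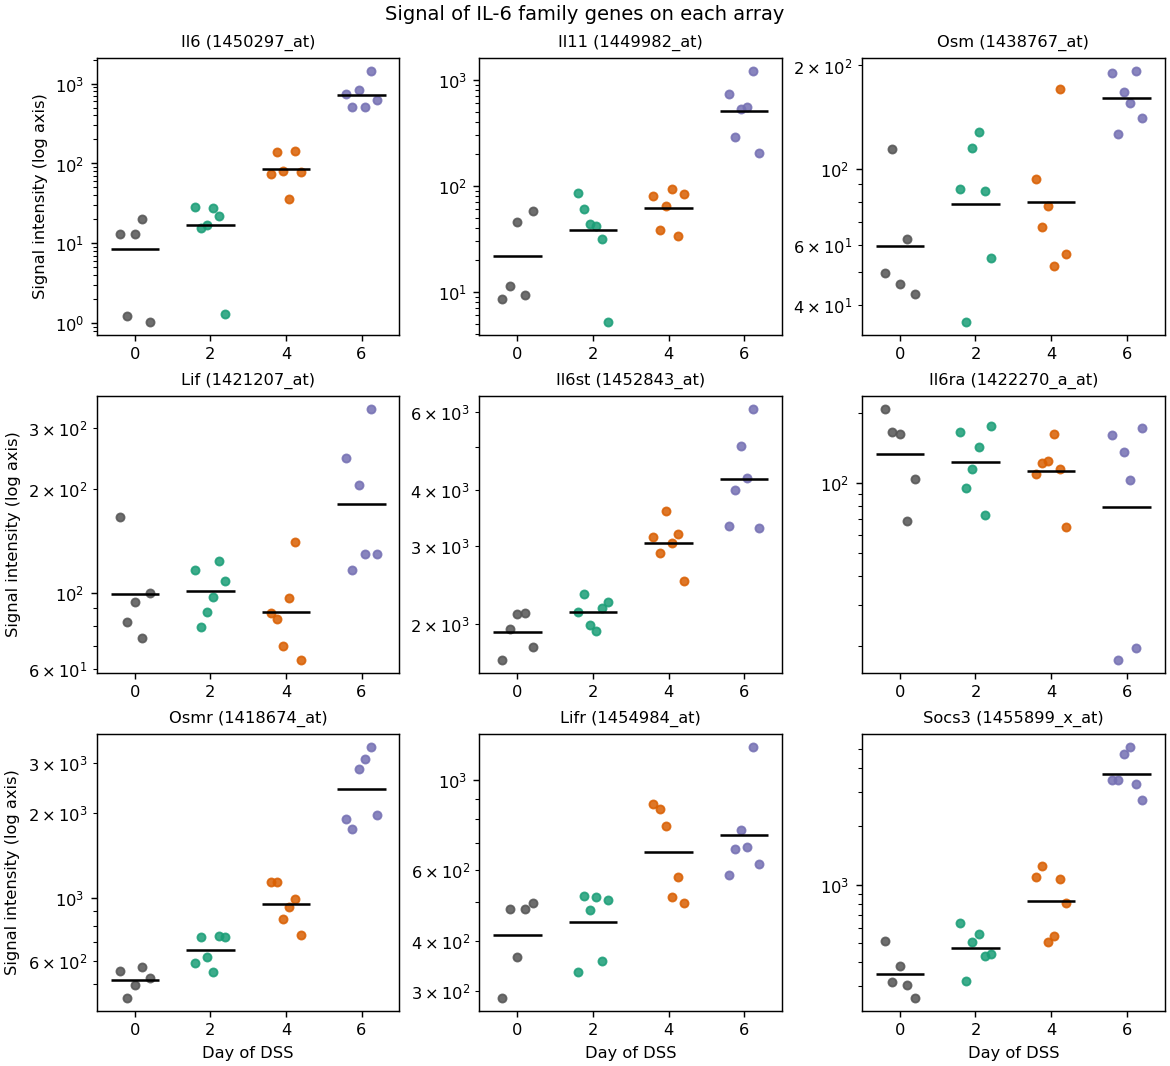
Signal on each of the 23 arrays (points, log axis) by day for the probe set used for each of the 9 measured members; the line is the mean of log2(signal + 16) per day turned back to signal. All 6 day 6 arrays lie above every array of days 0, 2 and 4 for Il6, Il11, Osmr and Socs3, and Il6ra has 2 low arrays at day 6.

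Among the receptors, the shared subunit Il6st (gp130) rose on the probe set used, the brightest of its 4. Day 0 signals were 1661, 1956, 2110, 2120 and 1782. At day 2 they ran from 1929 through 2155 to 2338, at day 4 from 2503 through 3089 to 3586, and at day 6 from 3295 through 4137 to 6096. Days 4 and 6 were above every array of days 0 and 2, and overlapped each other. Il6st rose by 0.66 ± 0.12 at day 4 (1.58-fold, limma adjusted p = 0.000988) and 1.14 ± 0.12 at day 6 (2.2-fold, adjusted p = 3.43e-07).

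The probe sets of Il6st did not move alike at day 4. In a fit of all 45037 non-control probe sets, one of the others fell by 0.72 ± 0.19 at day 4 (limma adjusted p = 0.0192), from day 0 signals of 464 to 599.7 to day 4 signals of 237 to 532. It differed by -0.02 at day 6. The remaining pair differed by -0.13 and 0.14 at day 4, neither of which passed, and rose by 0.76 and 0.74 at day 6. The mean over the 4 probe sets differed by -0.01 at day 4, with an adjusted p of 0.965, so the day 4 rise of Il6st was seen on 1 of its 4 probe sets. Which transcripts each probe set reads was not analysed here.

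Osmr, the oncostatin M receptor, had the largest rise of the receptors at both day 4 and day 6. Day 0 signals were 556, 445, 495, 575 and 524, and day 2 signals ran from 549.9 through 676 to 738. At day 4 they ran from 741 through 964 to 1145, just above the highest day 2 array, and at day 6 from 1754 through 2420 to 3428. Each of the later days was thus clear of the day before it, and only days 0 and 2 overlapped. Osmr rose by 0.87 ± 0.15 at day 4 (1.82-fold, limma adjusted p = 0.000655) and 2.19 ± 0.15 at day 6 (4.57-fold, adjusted p = 8.74e-10). The day 4 call was lost with the hybridization controls as a covariate (0.74, adjusted p = 0.0726). A further Osmr probe set differed by 0.47 at day 4, which did not pass, and rose by 1.65 at day 6.

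Lifr, the LIF receptor, had similar changes at days 4 and 6. Its signals were 289, 479.8, 364, 479 and 496 at day 0, and ran from 335 through 491 to 518 at day 2, from 497 through 674 to 875 at day 4, and from 583 through 680 to 1212 at day 6. Days 4 and 6 overlapped, and the lowest day 4 array lay just above the highest of day 0. The rise was 0.66 ± 0.19 at day 4 (1.58-fold, limma adjusted p = 0.0196) and 0.80 ± 0.19 at day 6 (1.74-fold, adjusted p = 0.00229). Leaving out mouse 1 or mouse 3 of day 0, or mouse 1 of day 4, lost the day 4 call, with an adjusted p of up to 0.0674. The other probe set of Lifr above the filter differed by -0.18 at day 4 and -0.21 at day 6, and the mean of both differed by 0.24 and 0.29, which did not pass (adjusted p = 0.418 and 0.264). With the hybridization controls as a covariate Lifr stood at 0.41 at day 4 and 0.46 at day 6 (limma adjusted p = 0.44 and 0.417).

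Il6ra, the IL-6 binding receptor, did not pass at any day. Day 0 signals were 208, 165, 162, 69.2 and 104. They ran from 73.2 through 129 to 176 at day 2, from 64.7 through 119 to 162 at day 4, and from 17.5 through 119.8 to 172 at day 6. Day 6 split into mice 3 and 21, at 17.5 and 19.8, and 4 animals between 103 and 172, within the day 0 range. The day 6 difference was -0.66 ± 0.40 (limma adjusted p = 0.218). Its other probe set, below the filter, differed by 0.25.

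**Figure D3:**
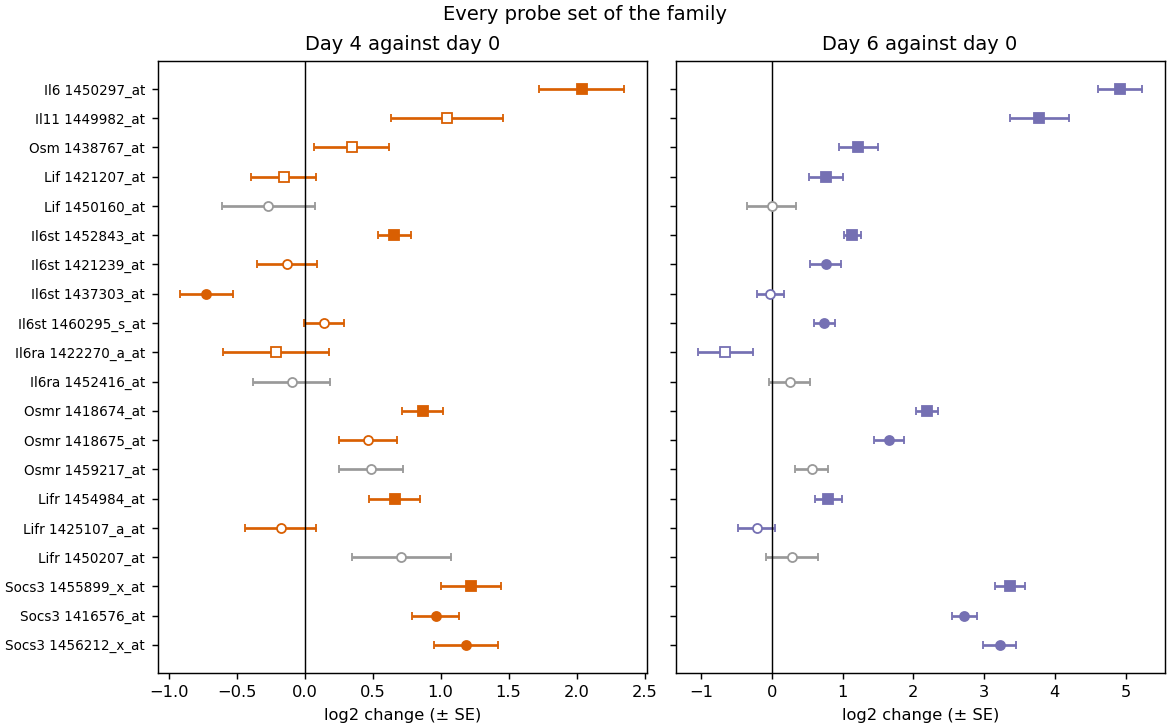
Change against day 0 at days 4 and 6 (horizontal axis, log2(signal + 16), bars of 1 SE) for all 20 probe sets of the members; squares are the probe sets used, grey ones lie below the filter, filled ones passed when each probe set was tested alone. The 3 Socs3 probe sets lie together at both days, whereas those of Il6st spread from -0.72 to 0.66 at day 4.

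Of the 20 probe sets tested alone, 7 were higher and 1 lower at day 4, against 4.31% and 4.33% of all 45037. At day 6, 13 were higher and 0 lower, against 7.7% and 7.59%. None of the 4 below the filter passed at day 4 or day 6.

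Socs3, the inhibitor that gp130 signalling itself induces, rose at day 4 and more at day 6. Its day 0 signals were 511, 316, 384, 305 and 261. At day 2 they ran from 320 through 473 to 636, at day 4 from 505 through 939 to 1243, and at day 6 from 2739 through 3451 to 5137. One day 4 animal lay below the highest day 0 animal, mouse 1, whereas day 6 was clear of all others, its lowest animal above the highest of day 4. Socs3 rose by 1.22 ± 0.22 at day 4 (2.33-fold, limma adjusted p = 0.000906) and 3.37 ± 0.22 at day 6 (10.3-fold, adjusted p = 4.99e-10). At day 2 it differed by 0.43 (adjusted p = 0.432). The 2 other Socs3 probe sets rose by 0.96 and 1.19 at day 4 and by 2.72 and 3.22 at day 6. At day 2 they differed by 0.62 and 0.27, which did not pass with each probe set tested alone (limma adjusted p = 0.199 and 0.769).

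Between successive treated days members passed at both steps. From day 2 to day 4, 5 of 9 rose, against 9.45% of all genes, and 3 had no overlap, against 4.21%. They were Il6 (1.60, limma adjusted p = 0.004), Il6st (0.51, adjusted p = 0.00903), Osmr (0.53, adjusted p = 0.021), Socs3 (0.79, adjusted p = 0.0194) and Lifr (0.56, adjusted p = 0.042). As the mean of their kept probe sets Il6st, Osmr and Lifr differed by 0.02, 0.30 and 0.21, which did not pass (limma adjusted p = 0.939, 0.229 and 0.482). The first step is the less firm: without day 4 mouse 1 or day 4 mouse 3 the count was 2. With the hybridization controls as a covariate it was 0, where 56 of all genes rose and 16 fell. These controls nearly separate day 2 (lowest 11.32) from day 4 (highest 11.34), but not day 4 from day 6. The loss in that fit therefore cannot be assigned to controls or day, and does not rank the steps. Without the 4 arrays that stand apart Socs3 had a limma adjusted p of 0.0672. From day 4 to day 6, 7 of 9 rose, against 9.07% of all genes, and 4 had no overlap, against 3.13%. Socs3 rose by 2.14 (adjusted p = 1.33e-06), Osmr by 1.33 (adjusted p = 2.88e-06), Il6 by 2.88 (adjusted p = 2.16e-06) and Lif by 0.92 (adjusted p = 0.00532). Il6st gained 0.48 (adjusted p = 0.00485), and Osm gained 0.88 (adjusted p = 0.018), which became 0.75 with an adjusted p of 0.0552 without the 4 arrays. Lifr, by contrast, differed by only 0.14 ± 0.19 (adjusted p = 0.628). Over all genes, 1130 rose and 1711 fell from day 4 to day 6, and after median centring 764 and 2230.

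Within day 6 the animals differed. Mouse 21 had the highest signal of the 6 for 7 of the 9 members, the exceptions being Socs3, where it ranked 5 of 6 and mouse 7 was highest, and Il6ra, where mouse 29 was highest. Its Il6 signal was 1454 against 507 to 841 in the other 5. Without mouse 21 the day 6 rise was 4.72 for Il6, 3.53 for Il11, 2.09 for Osmr and 3.40 for Socs3, and all of these passed. The same animal had the highest sums of neutrophil (13566), macrophage (46986), fibroblast (86511), squamous (46023) and skeletal muscle (62422) markers at day 6, and the lowest of colon epithelium (144559).

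**Figure D4:**
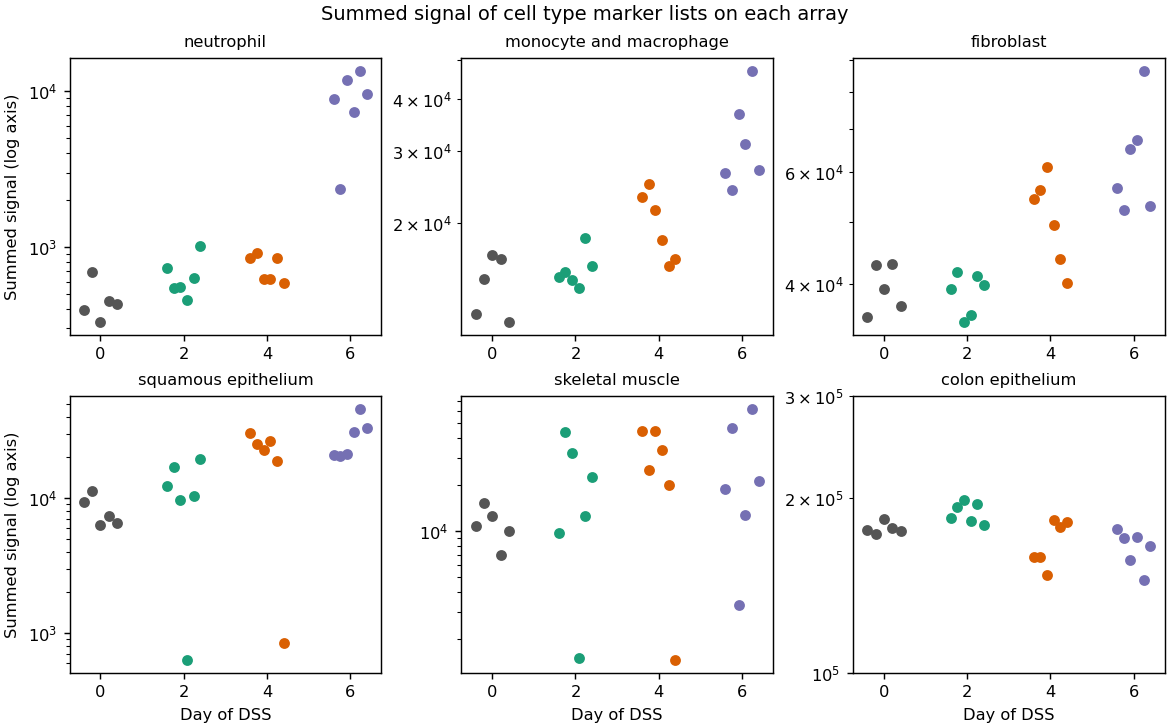
Summed signal of the marker genes of 6 cell types or tissues on each array (vertical axis, signal) by day. Neutrophil and macrophage sums of all 6 day 6 arrays lie above every day 0 array, and the squamous sum of 2 arrays, day 2 mouse 8 and day 4 mouse 8, lies below all others.

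Markers of several other cell types rose as well. Against day 0, those of colon epithelium did not, and those of smooth muscle did so only at day 4. Beside the counts below, 12.1% of all genes rose at day 4 and 18.1% at day 6. The summed signal of 8 neutrophil markers lay between 329 and 694 at day 0, 456 and 1021 at day 2, 584 and 912 at day 4, and 2370 and 13566 at day 6, and the 5 that were tested rose at day 6. Csf3r and Trem1 passed the filter only through their day 6 arrays, so their rise was fixed by it, and the other 5 listed markers were not tested. Neutrophil Cxcr2 and Ngp stayed dim, above their array's median on 1 array each. For 11 macrophage markers the sum lay between 11436 and 16642 at day 0, 13879 and 18377 at day 2, 15692 and 24877 at day 4, and 24050 and 46986 at day 6. All 11 rose at day 6, and 4 of 11 at day 4. For 9 fibroblast markers it lay between 35513 and 42963 at day 0, 34866 and 41721 at day 2, 40104 and 61093 at day 4, and 52351 and 86511 at day 6. Of these 9 genes, 5 rose at day 4 and 8 at day 6. For 7 squamous markers it lay between 6351 and 11249 at day 0, 631 and 19460 at day 2, 845 and 30579 at day 4, and 20519 and 46023 at day 6, where 2 of 7 rose. Endothelial markers rose for 7 of 8 genes at day 4 and 5 of 8 at day 6. Epithelial sums lay between 173783 and 184415 at day 0 and between 144559 and 177030 at day 6, and 3 of 12 genes fell, against 14.4% of all genes. T cell marker sums lay between 725 and 870.2 at day 0, 807 and 912 at day 2, 916 and 1619 at day 4, and 1210.1 and 2852 at day 6. Of the 2 tested genes, Thy1 was higher at days 4 and 6 and Cd8a did not pass. Thy1 made most of these sums, with medians of 471 at day 0 and 1128 at day 6. Cd3e, Cd3d, Cd4 and Cd8b1 lay above their array's median on 1 array each, Cd2 on 0 and Cd3g on 4. Of 6 smooth muscle markers, 4 rose at day 4, and 0 passed at day 6 against day 0. From day 4 to day 6, 4 fell, against 13.7% of all genes. The part of these cells in the members' changes was not tested.

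Of 55 other genes listed for the pathway, 43 were tested. At day 2, 0 passed in limma's test. At an unadjusted p under 0.05 the count was 10 (6 higher, 4 lower), against 12.8% of all genes in either direction. Of the 43, 2 had no overlap with day 0 and were higher, against 1.28% of all genes: Lcn2, which binds bacterial iron carriers (1.27, adjusted p = 0.127), and Serpina3n (1.23, adjusted p = 0.102). At day 4, 12 rose and 5 fell, against 12.1% and 4.34% of all genes. At day 6, 26 rose and 3 fell, against 18.1% and 14.4%, and the median over the list was 0.15 at day 4 and 0.43 at day 6 on the log2 scale. From day 2 to day 4, 5 rose and 2 fell, against 9.45% and 4.12% of all genes, and from day 4 to day 6, 22 rose and 1 fell, against 9.07% and 13.7%.

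**Figure D5:**
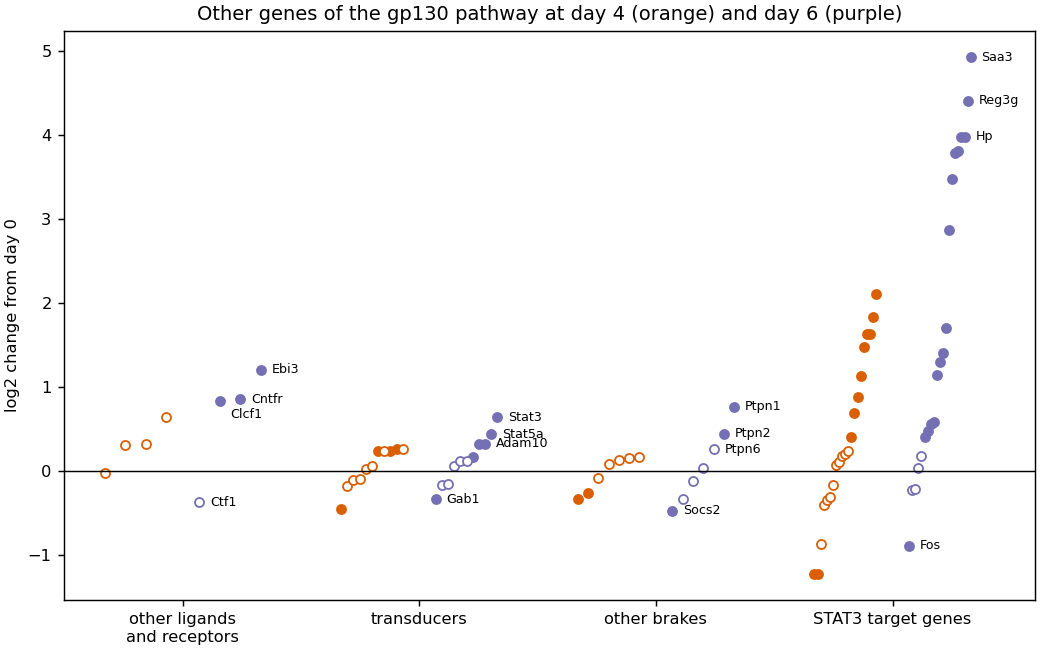
Change against day 0 at day 4 (orange) and day 6 (purple) on the log2(signal + 16) scale for the tested genes of 4 pathway lists; filled symbols passed. Known STAT3 target genes reach 4.92 at day 6 for Saa3, while the signal transducers and brakes stay between -0.48 and 0.76 at that day.

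Of the other ligands and receptors of the family, 3 of the 4 tested rose at day 6. They were Ebi3 (1.20 ± 0.36, limma adjusted p = 0.013), a subunit of IL-27 and IL-35, Cntfr (0.85 ± 0.26, adjusted p = 0.0149), the receptor of ciliary neurotrophic factor, and Clcf1 (0.83 ± 0.21, adjusted p = 0.00383), a ligand of that receptor. Ebi3 and Cntfr passed the filter on low values only with their day 6 arrays, so their rises do not stand as support. Their calls were also lost without day 0 mouse 5 (adjusted p = 0.0509 and 0.062). Clcf1 as the mean of its kept probe sets differed by 0.51 (adjusted p = 0.114), and all 3 calls were lost with the hybridization controls as a covariate (adjusted p = 0.312, 0.192 and 0.205). None of the 4 passed at day 4.

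Among 11 signal transducers, 5 rose and 1 fell at day 6, against 18.1% and 14.4% of all genes. Stat3, the main effector of gp130, differed by -0.10 ± 0.16 at day 4 (limma adjusted p = 0.703) and rose by 0.64 ± 0.16 at day 6 (adjusted p = 0.00363). Its relative Stat5a rose by 0.43 ± 0.12 at day 6 (adjusted p = 0.00804), which became 0.24 both when its probe sets were averaged (adjusted p = 0.0689) and with the covariate (adjusted p = 0.521). Adam10, a protease able to shed the IL-6 receptor, rose by 0.24 at day 4 (adjusted p = 0.00722) and 0.32 at day 6 (adjusted p = 0.000163). As the mean of its probe sets Adam10 differed by -0.039 at day 4 (adjusted p = 0.78) and 0.097 at day 6 (adjusted p = 0.374), and the day 4 call was also lost after median centring (adjusted p = 0.074) and with the covariate (adjusted p = 0.0769). The adaptor Gab1 fell by 0.34 at day 6 (adjusted p = 0.0106). Of 7 brakes other than Socs3, 2 rose and 1 fell at day 6, which is near the 18.1% and 14.4% of all genes and is no result about the list. Ptpn1 and Ptpn2, phosphatases that act on JAK, rose by 0.76 ± 0.09 (adjusted p = 4.94e-07) and 0.44 ± 0.11 (adjusted p = 0.00248). Socs2, a relative of Socs3 known for restraining growth hormone signalling, fell by 0.33 at day 4 (adjusted p = 0.0144) and 0.48 at day 6 (adjusted p = 0.000288). As the mean of its probe sets Socs2 differed by -0.017 at day 4 (adjusted p = 0.921) and -0.12 at day 6 (adjusted p = 0.322). With the covariate the adjusted p was 0.21 and 0.0784, and the day 4 call was lost without day 0 mouse 5 (adjusted p = 0.0545).

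Of 21 known targets of STAT3, 9 rose and 2 fell at day 4, against 12.1% and 4.34% of all genes, and 16 rose and 1 fell at day 6, against 18.1% and 14.4%. Their median was 0.20 at day 4 and 1.29 at day 6. Saa3, an acute phase protein, rose by 1.83 ± 0.38 at day 4 and 4.92 ± 0.38 at day 6 (limma adjusted p = 3.23e-09). Reg3g, an epithelial lectin that kills bacteria, differed by 1.60 ± 0.47 already at day 2, which did not pass (adjusted p = 0.134), and rose by 1.62 ± 0.47 at day 4 and 4.41 ± 0.47 at day 6 (adjusted p = 3.34e-07). The protease inhibitor Serpina3n rose by 1.63 ± 0.32 and 3.97 ± 0.32 at the same days (adjusted p = 7.19e-09 at day 6). Hp, haptoglobin, differed by -0.88 ± 0.64 at day 4, which did not pass (adjusted p = 0.376), and rose by 3.98 ± 0.64 at day 6 (adjusted p = 5.17e-05). Hp passed the filter on low values only with its day 6 arrays, so its rise, counted among the 16, does not stand as support. The Reg3g call at day 4 was lost without day 0 mouse 4 (adjusted p = 0.0699), and with the covariate the day 4 calls of Saa3, Reg3g and Serpina3n were lost (adjusted p = 0.108, 0.325 and 0.084), as was that of Hp at day 6 (3.41, adjusted p = 0.0577). The immediate early genes Fos and Junb were named after their values were seen, as the 2 targets that passed as lower at day 4. They changed by -1.23 and -1.22 at that day, and Fos by -0.89 at day 6 (limma adjusted p = 0.00861). Other targets, among them Hp, Myc and Birc5, also lay below day 0 at day 4 without passing.

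The genes whose course over the 23 arrays lay nearest to that of 3 members were found by the root-mean-square difference of their log2 levels, each relative to its own day 0 mean. Nearest to Il6 were Mmp10 (0.53), Mmp3 (0.56) and Saa3 (0.65), which are stromelysins and the acute phase gene named above. Nearest to Osm were Alpl (0.34), an alkaline phosphatase, Hhipl1 (0.38) and Eif4e3 (0.40). Nearest to Socs3 were the chemokine Ccl8 (0.40), the metalloprotease inhibitor Timp1 (0.53) and Lgi2 (0.56). At day 6 Mmp10 and Mmp3 differed from day 0 by 4.87 and 5.07, and Ccl8 and Timp1 by 3.12 and 2.87. These values describe likeness over arrays that share their day means, and say nothing of shared function.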

How the data were processed

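The authors deposited linear intensities, 1 per probe set and array, which MAS5 made, per the submitters' processing notes (no version given). Tested on the deposited table, each array had a mean of 500.0 once 2% of values were trimmed from both ends, and medians from 97.3 to 121. No further normalization was applied, and such scaling cannot show a change in total RNA. Precision is limited by how many arrays there are.

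Of 45101 probe sets, 64 controls were left out. The platform annotation, which can be old, gave 1 symbol for 34945, several for 932 and none for 9160, and only those with 1 symbol were named. Probe sets above the median of their own array on at least 5 arrays were kept, and each gene was read from its kept probe set of highest mean, which gave 12463 genes. Signals were analysed as log2(signal + 16) with limma 3.58.1 in R 4.3.3 (lmFit, eBayes with a trend, all 4 days in 1 fit, two-sided), after a check on simulated data. Each of 5 contrasts was adjusted over all genes by the Benjamini-Hochberg method, and comparisons with day 0 share its 5 arrays.

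Members, lists and tests were chosen with earlier results of these data known. Named pathway genes are up to 4 per list that passed with the largest change at day 6. Mouse numbers recur between days, but 3 of 17 pairs of arrays with the same number correlated above 0.1, beside 35 of 181 pairs with other numbers. They were therefore not treated as pairs. Alternatives changed the constant added, filter, scaling, choice of probe set, arrays, days in the fit, and a covariate or block.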

Additional observations from a re-analysis of the deposited data

Results flagged for a closer look

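On the log2(signal + 16) scale, a value far from the others of its day was looked for in 36 groups of arrays (9 members, 4 days), of which chance alone marks about 1 in 20, and 2 were found. At day 2 the Il6 signal of mouse 52 was 1.30, against 15.6 for the next lowest animal and a median of 19.4. On that log2 scale its gap to the next animal was 0.636 of the range of the day, above the critical value of 0.625. All of these Il6 signals lay below the median of their arrays. At day 6 the Lifr signal of mouse 21 was 1212, against 752 for the next highest animal and a median of 680. On the log2 scale that gap was 0.653 of the range, and without this animal the day 6 rise of Lifr was 0.66 with a limma adjusted p of 0.00642.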

How the results depend on the processing

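For the 25 member results that passed, 259 values under the alternatives other than leaving out 1 array kept direction and call, 30 lost the call and 1 turned in sign, Il6st at day 4, at -0.012 as the mean of its probe sets. With the mean of the kept probe sets, 3 members passed at day 4 and 2 from day 2 to day 4, where 3 pathway genes passed; Adam10 stood at -0.039 at day 4 and -0.044 from day 2 to day 4, and Il6st at -0.034 at day 2. With the hybridization controls as a covariate, 2 members and 2 pathway genes passed at day 4, 5 and 17 at day 6, and 0 and 0 from day 2 to day 4. Of all genes, 56 rose and 16 fell from day 2 to day 4 in that fit. Under it Lif stood at -0.028 at day 2, and Il6ra at 0.021 at day 4 and 0.092 from day 2 to day 4. Restricted to probe sets above the 75th percentile (7704 genes, among them only Il6st, Osmr, Lifr and Socs3 of the members), 4 members passed at day 6 and 3 from day 4 to day 6. Fitting only the days compared gave 1 pathway gene at day 2, and each probe set tested alone, added after seeing the data, gave 4 from day 2 to day 4. Median centring put Osm at -0.0032 from day 2 to day 4, and without the 4 arrays that stand apart Lifr stood at -0.0031 at day 2.

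Mouse numbers did not pair the arrays in general: correlations of same-numbered arrays ran from -0.16 to 0.70 with a median of 0.05. Those of arrays with other numbers ran from -0.50 to 0.38 with a median of 0.003. The value of 0.70 was that of day 2 mouse 8 with day 4 mouse 8, the arrays with the low squamous sums. With the number as a replicate block, 11 pathway genes passed at day 4 (7 higher, 4 lower), and 1 member and 1 pathway gene from day 2 to day 4. Under the block Lif stood at -0.21 at day 2, Osm at -0.065 from day 2 to day 4, and Lifr at -0.065 from day 4 to day 6.

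Leaving out 1 array at a time gave 0 to 1 pathway genes at day 2 (1 without mouse 1 of day 2), 2 to 5 members from day 2 to day 4 (2 without mouse 1 or mouse 3 of day 4) and 3 to 9 pathway genes there (3 without mouse 7 of day 2, or mouse 1 or 3 of day 4). Differences that did not pass crossed 0: Lif from -0.069 to 0.18 at day 2 and from -0.27 to 0.0079 at day 4, Il6ra from -0.31 to 0.044 at day 2 and from -0.24 to 0.028 from day 2 to day 4, Lifr from -0.023 to 0.18 at day 2 and from -0.0054 to 0.22 from day 4 to day 6, and Osm from -0.17 to 0.14 from day 2 to day 4. The causes were not tested. Signals of Il6 and Il11 below their arrays' medians at days 0 and 2 limit how well their early levels are known.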
